A study of Homo sapiens with 9 samples.

Results

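Described here are 10 human genes that were close to silent in control MDA-MB-231 cells and over 10-fold higher in cells depleted of APT1: the cell-surface genes CHRM3, OLR1, LYPD6B and PLXDC2, the signalling and trafficking genes PDE1C, NRK and AMPH, and the chromatin and transcription genes NAP1L3, ZNF521 and TRIM29. They were chosen by their measured level in control and their fold change, above 10 in shAPT1 against control or against APT1wt, so their levels in those comparisons are a description, without a test. By the limits used below, 50 genes met these conditions, and the 10 genes are only part of them. The 10 are among 58219 genes in the annotation and among 15233 that passed a filter on low counts. All 10 passed it with the shAPT1 libraries present. With the APT1wt and control libraries alone, 2 of the 10 passed it, LYPD6B and PDE1C.

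MDA-MB-231 is an established human line from a breast carcinoma that lacks hormone receptors. APT1, encoded by LYPLA1, is an acyl-protein thioesterase that removes palmitate from cysteines of membrane-associated proteins. There were 3 groups of 3 libraries of total RNA. The shAPT1 cells carried a lentiviral short hairpin RNA for stable APT1 knockdown and were selected with puromycin, the APT1wt cells carried a lentivirus for stable overexpression of wild-type APT1, and the control cells carried a lentiviral scramble RNA. All 3 groups were grown in DMEM with fetal bovine serum. The hairpin sequence, the number of hairpins and whether the lines were clones or pools are not given in the sources used here, nor is a vector control of its own for APT1wt. No label says whether libraries with the same treatment are separate cultures, and the p-values cover the spread among these libraries, which could be technical.

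LYPLA1, the targeted gene, had 38.2, 30.5 and 36.7 TPM in shAPT1, 169, 171 and 170 TPM in APT1wt, and 87.1, 92.7 and 80.5 TPM in control. TPM is a share of the library's transcripts corrected for transcript length. The libraries held 12381681 to 18667042 estimated reads. Of the markers of this line, VIM, AXL, CD44, EGFR, MSN, CAV1 and SPARC were detected. SPARC averaged only 0.954 TPM in shAPT1, 2.55 in APT1wt and 1.16 in control. Of 7 genes listed as absent or low in this line, only PGR was under 0.1 TPM in every library. ERBB2 averaged 32.5, 32.3 and 29.9 TPM in the same order, EPCAM 10.3, 8.68 and 10.1, and GATA3 9.51, 7.32 and 9.45. CDH1 averaged 0.791, 1.3 and 0.775 TPM, and neither ESR1 nor FOXA1 averaged above 0.181 TPM in any group. Of markers of other cell types, 2 of 10 for leukocytes (CD3E, TYROBP), 2 of 8 for endothelium (CDH5, VWF), 4 of 11 for neurons (STMN2, GAP43, ELAVL4, NEFM), 3 of 7 for muscle (MYOD1, DES, CKM) and 0 of 8 for fibroblasts were under 0.1 TPM in every library. Other members of these lists were expressed in every group. CD68 averaged 80.6 TPM in shAPT1, 81.1 in APT1wt and 117 in control, ESAM 62.2, 99.7 and 43.4 TPM in the same order, GAD1 9.77, 9.42 and 10.4 TPM, and TNNT1 44.7, 49.4 and 54.3 TPM. Of 4 tested fibroblast markers 3 rose and 1 fell in shAPT1 against control, and the 8 summed to 13.3 to 22.8 TPM in shAPT1, 20.1 to 24.7 in APT1wt and 18 to 20.7 in control. Their part in the levels of the 10 genes was not tested.

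Cells keep genes of other tissues silent through chromatin and through the absence of the factors that would activate them, and cultured tumour lines differ in which of these genes they transcribe. Most of the genes described here are best known outside the breast: the M3 muscarinic receptor from smooth muscle and glands, LOX-1 from endothelium and macrophages, amphiphysin from nerve terminals, NRK from placenta and ZNF521 from blood and neural progenitors. TRIM29 is known from basal epithelium.

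Together the 10 genes held 78.5, 87.1 and 86.2 CPM in the shAPT1 libraries, 3.10, 3.89 and 3.82 in APT1wt, and 3.44, 4.39 and 3.32 in control. CPM scales reads to a fixed library total, with no correction for transcript length. These sums use the estimated reads of each library, while the CPM of single genes uses totals adjusted between libraries by TMM. Each shAPT1 library had at least 10 reads in all 10 genes, while 7, 7 and 6 of the genes had under 5 reads in the APT1wt libraries, as had 7 in each control library. In every one of the 10 genes the lowest shAPT1 library, in CPM, stood above the highest APT1wt and the highest control library. Of all tested genes, 19.5% were separated that way between shAPT1 and control and 20% between shAPT1 and APT1wt. The fitted fold was 17.2 to 44.1 against control, where 0.249% of tested genes exceeded 10-fold. Against APT1wt it was 3.47 to 92.5, above 10 in 7 genes and not in LYPD6B, OLR1 and TRIM29, where 0.335% of tested genes exceeded 10-fold. In mixed RNA from many cells, more cells with a transcript and more transcript per cell cannot be told apart.

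**Figure D1:**
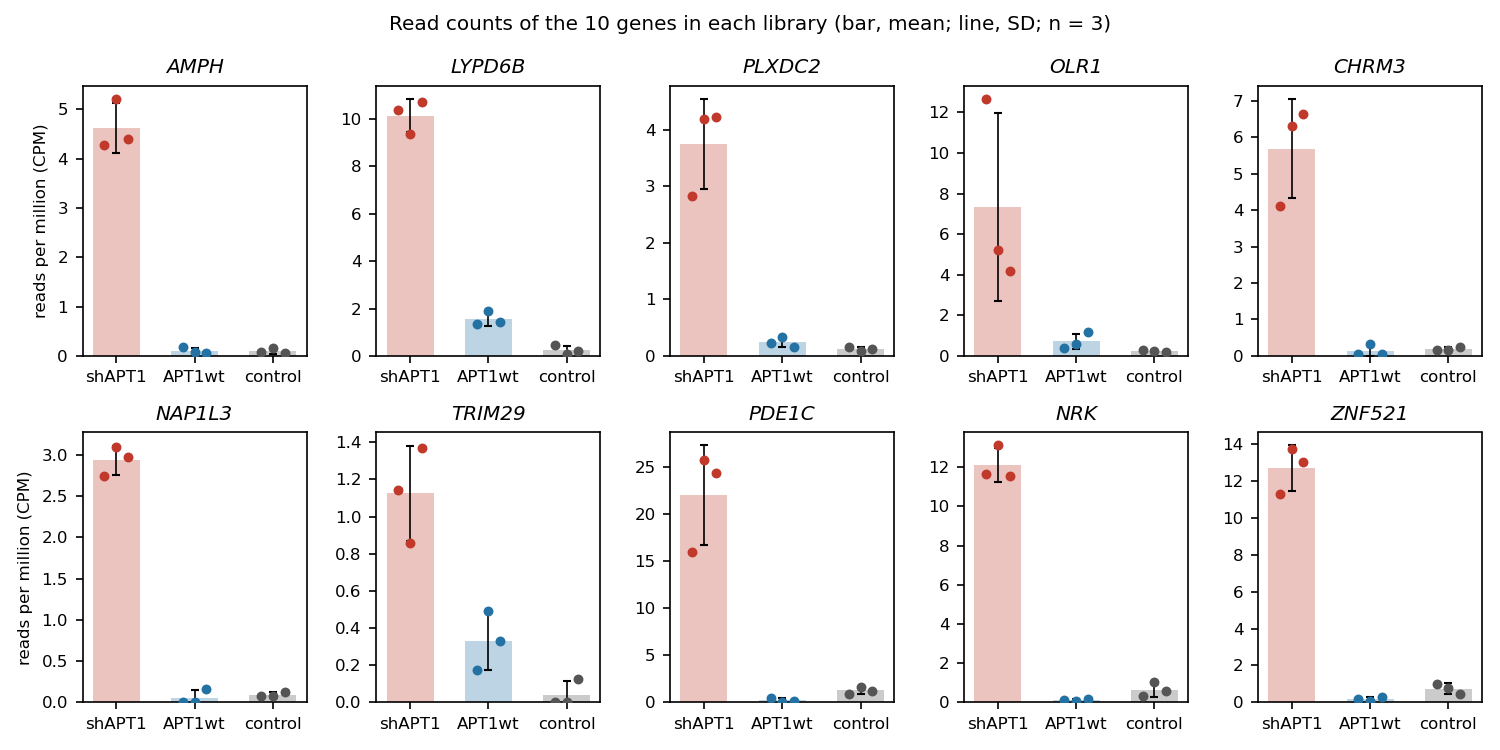
Read share in CPM (vertical axis, a separate linear scale per gene) of the 10 genes in the 3 shAPT1, 3 APT1wt and 3 control libraries, with points for libraries, bars for means and lines for SD. Every shAPT1 point lies above every APT1wt and control point of the same gene, and OLR1 has 1 shAPT1 library apart from the other 2.

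Mean TPM in shAPT1 ran from 1.18 ± 0.32 for TRIM29 to 16.3 ± 2.1 for LYPD6B (SD, n = 3), so that 11.3% of tested genes stood below TRIM29 and 51.7% below LYPD6B. In control the means ran from 0.0315 ± 0.0099 TPM for CHRM3 to 0.703 ± 0.56 TPM for ZNF521, and 7 of the 10 were under 0.5 TPM. Low-level fold changes rest on few reads: the 3 control libraries held between 2 reads (TRIM29) and 53 reads (PDE1C) per gene in all, and the 3 APT1wt libraries between 3 (NAP1L3) and 72 (LYPD6B).

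For 7 of the genes RefSeq promoters were matched, giving 13 windows from 250 bases before to 50 bases after a start site on GRCh38.p14. Those of CHRM3, PDE1C, NRK, AMPH and NAP1L3 whose start lies within 50 bases of a transcript holding at least 30% of the gene's TPM in shAPT1 are printed beside the genes. These shares are estimates from reads, and no start site was measured. For CHRM3 and PDE1C that transcript held fewer reads than a coding transcript that starts elsewhere. Capitals mark letters found on either strand for 7 motifs, none of which overlaps another in the windows printed. The motifs were the TATA box (TATAAA, in 11.5% of 35116 promoters), the CCAAT box (CCAAT, 34.6%), the GC box (GGGCGG, 45.0%), and the letters bound by AP-1 (TGANTCA, 7.71%), TEAD (GGAATG, 14%), RBPJ (TGGGAA, 24.0%) and TCF/LEF (CTTTGA, 12.9%). A match is only a match of letters.

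CHRM3, the M3 muscarinic acetylcholine receptor (ENSG00000133019.11; chromosome 1, 239386565 to 239915452, plus strand), couples through Gq to phospholipase C. It had 2.06, 2.26 and 3.62 TPM in shAPT1, 0.038, 0.054 and 0.0089 TPM in APT1wt, and 0.024, 0.027 and 0.043 TPM in control. Both other groups were near 0 and overlapped each other, while no shAPT1 library came near them. The reads behind these levels were 280 in shAPT1, 6 in APT1wt and 8 in control. The log2 fold change was 4.83 ± 0.40 against control and 5.40 ± 0.41 against APT1wt. With an offset for transcript length these were 6.23 and 6.35, with the deposited scaled table the first was 5.68, and without APT1wt replicate 2 the second was 6.47. Of its TPM in shAPT1, 53.9% fell on protein-coding transcripts, and the processed transcript ENST00000468573.5 of 2005 nt held 31.9%. Of its reads, 60.7% fell on the coding transcript ENST00000255380.8 of 8780 nt. An antisense gene, CHRM3-AS2, had 14 reads in shAPT1 and 0 in both other groups, and without a stated strand setting its reads cannot be told apart from those of CHRM3. The window at chr1:239386318-239386617 (plus strand) lies at the start of ENST00000468573.5, which held 18.9% of the reads. The coding ENST00000255380.8 starts elsewhere, at 239629073. This window has RBPJ letters starting 228 bases and TEAD letters starting 84 bases before the start site.
CHRM3: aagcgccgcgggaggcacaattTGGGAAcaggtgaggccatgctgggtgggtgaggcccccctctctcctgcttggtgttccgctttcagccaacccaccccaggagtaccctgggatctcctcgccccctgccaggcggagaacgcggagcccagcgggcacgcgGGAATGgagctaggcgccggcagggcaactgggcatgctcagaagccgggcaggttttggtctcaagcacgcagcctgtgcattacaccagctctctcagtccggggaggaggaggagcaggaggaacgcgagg

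OLR1 encodes LOX-1, a lectin-like scavenger receptor for oxidized LDL (ENSG00000173391.8; chromosome 12, 10158301 to 10172138, minus strand). It had 9.18, 3.77 and 2.75 TPM in shAPT1, 0.564, 0.409 and 0.967 TPM in APT1wt, and 0.387, 0.152 and 0.119 TPM in control. The 3 groups did not overlap, and shAPT1 replicate 1 stood well above the other shAPT1 libraries. The same library had the highest shAPT1 levels of the cytokine genes IL6 (46.8 TPM against 9.97 and 10.7), CXCL8 (138 against 22.6 and 22.8) and CXCL1 (143 against 16.6 and 15), chosen after their values were seen. Their part in the OLR1 level was not tested. The log2 fold change was 4.85 ± 0.55 against control and 3.29 ± 0.44 against APT1wt. Without shAPT1 replicate 1 these were 4.23 and 2.67, with the deposited table the first was 4.15, and without APT1wt replicate 3 the second was 3.89. A single coding transcript, ENST00000309539.7 of 2462 nt, held 96.4% of the reads in shAPT1. Of 8 endothelial markers 4 were tested and 2 of these rose in shAPT1 against control, and the summed level of all 8 was 59.7 to 77.4 TPM in shAPT1, 102 to 106 TPM in APT1wt and 41.4 to 51.0 TPM in control, with CDH5 and VWF under 0.1 TPM throughout. The 10 leukocyte markers summed to 71.8 to 92.2 TPM in shAPT1, 77.2 to 105 TPM in APT1wt and 111 to 135 TPM in control, mostly CD68.

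LYPD6B, a GPI-anchored protein of the Ly6/uPAR family that modulates nicotinic acetylcholine receptors (ENSG00000150556.16; chromosome 2, 149038107 to 149215262, plus strand), was the most abundant of the 10 in shAPT1. It had 17.4, 13.8 and 17.5 TPM in shAPT1, 2.24, 3.66 and 2.22 TPM in APT1wt, and 1.13, 0.126 and 0.295 TPM in control. The groups did not overlap and APT1wt lay between the other groups. In the fit its log2 fold change was 5.34 ± 0.29 against control and 2.73 ± 0.21 against APT1wt, and without control replicate 1, the highest control library, the first was 6.08. Of its TPM in shAPT1, 50.3% fell on ENST00000280115.8, a coding transcript of 1100 nt and 5 exons that starts at 149204525, far inside the gene. A longer coding transcript, ENST00000409876.5, was listed at 0 in shAPT1 replicate 1 and at 2.77 and 6.20 TPM in replicates 2 and 3.

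PLXDC2, a transmembrane receptor for pigment epithelium-derived factor (ENSG00000120594.16; chromosome 10, 19816239 to 20289856, plus strand), had 0.797, 1.60 and 1.60 TPM in shAPT1. It had 0.028, 0.041 and 0.088 TPM in APT1wt and 0.017, 0.067 and 0.052 TPM in control. The shAPT1 libraries stood apart, and the other groups overlapped. PLXDC2 had a log2 fold change of 4.87 ± 0.39 against control and 3.97 ± 0.34 against APT1wt, the second being 4.95 with an offset for transcript length. The coding transcript ENST00000377252.4 of 12468 nt held 58.0% of the reads in shAPT1 but 19.8% of the TPM, while a processed transcript of 1903 nt held 44.7% of the TPM. Coding transcripts alone had 0.624, 0.650 and 0.935 TPM in shAPT1.

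PDE1C is a phosphodiesterase that is switched on by calcium and calmodulin and breaks down cAMP and cGMP (ENSG00000154678.16; chromosome 7, 31751179 to 32299329, minus strand). It had 5.61, 8.03 and 7.38 TPM in shAPT1, 0.201, 0.013 and 0.018 TPM in APT1wt, and 0.439, 0.429 and 0.745 TPM in control. The groups did not overlap, and APT1wt was below control. It gave the most reads of the 10 genes, with 1085 in shAPT1, 11 in APT1wt and 53 in control. PDE1C had a log2 fold change of 4.12 ± 0.26 against control and 6.53 ± 0.34 against APT1wt, and the second was 7.69 without APT1wt replicate 1. A pair of coding transcripts with separate starts shared the reads in shAPT1: ENST00000396184.7, starting at 32071408, held 56.1%, and ENST00000396193.5, starting at 32299329, held 39.7%. The first was listed above 0 in all 9 libraries. The second was listed at 0 in all 3 APT1wt libraries and in control replicates 2 and 3, against 1.82, 2.79 and 3.17 TPM in shAPT1. Its promoter, chr7:32299279-32299578 (minus strand), has a CCAAT box starting 215 bases, TEAD letters starting 174 bases and TCF/LEF letters starting 109 bases before the start site.
PDE1C: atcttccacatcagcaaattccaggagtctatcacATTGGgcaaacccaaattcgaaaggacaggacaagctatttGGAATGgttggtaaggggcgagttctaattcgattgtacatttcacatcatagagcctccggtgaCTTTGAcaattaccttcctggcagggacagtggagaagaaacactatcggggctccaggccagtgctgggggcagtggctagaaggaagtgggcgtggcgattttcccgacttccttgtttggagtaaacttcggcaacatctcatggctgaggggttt

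NRK, the Nik-related kinase of the germinal centre kinase family (ENSG00000123572.16; chromosome X, 105822543 to 105958610, plus strand), had 2.70, 2.35 and 2.22 TPM in shAPT1. It had 0.032, 0.077 and 0.030 TPM in APT1wt and 0.053, 0.205 and 0.103 TPM in control. The shAPT1 libraries agreed closely with each other, and the 2 lower groups overlapped in TPM but not in CPM. Its log2 fold change was 4.24 ± 0.24 against control and 6.50 ± 0.31 against APT1wt, the second being 5.30 with the deposited table. The coding transcript ENST00000243300.13 of 29 exons held 98% of the reads. Its promoter, chrX:105822289-105822588 (plus strand), is 70.3% G and C, with GC boxes starting 250, 117 and 43 bases and a CCAAT box starting 84 bases before the start site.
NRK: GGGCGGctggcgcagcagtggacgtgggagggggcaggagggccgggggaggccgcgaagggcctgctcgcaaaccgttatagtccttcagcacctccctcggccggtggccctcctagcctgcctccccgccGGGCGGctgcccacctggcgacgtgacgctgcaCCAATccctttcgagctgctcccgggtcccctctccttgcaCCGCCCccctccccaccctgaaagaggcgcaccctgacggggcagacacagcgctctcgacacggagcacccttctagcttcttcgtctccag

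AMPH encodes amphiphysin, which bends membranes and links clathrin to dynamin in endocytosis (ENSG00000078053.16; chromosome 7, 38383704 to 38631567, minus strand). It had 2.64, 2.94 and 2.62 TPM in shAPT1, 0.104, 0.468 and 0.211 TPM in APT1wt, and 0.035, 0.078 and 0.030 TPM in control. In reads the same libraries held 56, 91 and 77 in shAPT1, 3, 1 and 1 in APT1wt, and 1, 2 and 1 in control. APT1wt thus lay above control in TPM while the reads overlapped, since a read placed on a short transcript counts for more TPM. No coding transcript of AMPH was detected in APT1wt replicates 2 and 3. The log2 fold change was 5.46 ± 0.38 against control, the largest of the 10, and 5.36 ± 0.36 against APT1wt. The deposited table gave 4.70 against control and 3.22 against APT1wt. Against APT1wt the value was 4.09 with an offset for transcript length and 5.97 without APT1wt replicate 1. The 20-exon coding transcript ENST00000325590.9 held 89.0% of the reads in shAPT1. The 11 neuronal markers summed to 10.9 to 13.7 TPM in shAPT1, 7.96 to 14.4 TPM in APT1wt and 12.8 to 14 TPM in control. The AMPH promoter, chr7:38631324-38631623 (minus strand), holds 34 CpG dinucleotides, against a median of 14 over all promoters, and GC boxes starting 219, 179 and 136 bases before the start site. The ratio of CpG observed to that expected from its base composition was 1.15, above 98.6% of promoters.
AMPH: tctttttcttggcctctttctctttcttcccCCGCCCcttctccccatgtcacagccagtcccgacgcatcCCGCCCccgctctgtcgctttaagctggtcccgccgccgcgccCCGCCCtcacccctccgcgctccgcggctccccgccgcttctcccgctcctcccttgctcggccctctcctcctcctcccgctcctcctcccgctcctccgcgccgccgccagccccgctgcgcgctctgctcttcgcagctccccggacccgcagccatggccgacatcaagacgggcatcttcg

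NAP1L3, an X-linked member of the nucleosome assembly protein family (ENSG00000186310.9; chromosome X, 93670930 to 93673568, minus strand), had 1.69, 1.78 and 1.82 TPM in shAPT1. It was listed at 0, 0 and 0.095 TPM in APT1wt and had 0.044, 0.049 and 0.076 TPM in control. The shAPT1 libraries were the most alike of any of the 10 genes, with an SD of 0.064 TPM around 1.76 TPM. The log2 fold change was 4.81 ± 0.49 against control, or 4.2 with the deposited table. Against APT1wt, where 3 reads were all in replicate 3, the ratio of read rates was 48.8. Its exact 95% interval, 16.4 to 240, covers counting error only and is no test, since this comparison entered the choice of the gene. The fitted value against APT1wt was 5.38 ± 0.51, and 8.45 without APT1wt replicate 3. A single-exon coding transcript, ENST00000373079.3, held 94.1% of the reads. Its promoter, chrX:93673529-93673828 (minus strand), has RBPJ letters starting 184 and 79 bases and a GC box starting 175 bases before the start site.
NAP1L3: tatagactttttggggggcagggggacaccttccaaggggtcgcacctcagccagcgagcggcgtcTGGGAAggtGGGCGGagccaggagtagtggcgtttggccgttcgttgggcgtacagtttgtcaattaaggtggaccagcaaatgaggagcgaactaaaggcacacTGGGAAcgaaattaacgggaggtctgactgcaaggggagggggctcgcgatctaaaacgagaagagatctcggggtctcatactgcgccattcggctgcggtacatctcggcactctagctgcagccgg

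ZNF521, a multi-zinc-finger transcription factor that binds the NuRD corepressor and antagonizes EBF1 (ENSG00000198795.10; chromosome 18, 25061926 to 25352190, minus strand), had 5.20, 4.12 and 5.56 TPM in shAPT1. It had 0.060, 0.028 and 0.080 TPM in APT1wt and 1.32, 0.545 and 0.244 TPM in control. The groups did not overlap, with APT1wt lowest. ZNF521 had a log2 fold change of 4.11 ± 0.23 against control and 6.01 ± 0.28 against APT1wt. Against control it was 3.06 with an offset for transcript length and 2.99 with the deposited table, both under 10-fold. Its main coding transcript, ENST00000361524.7, held 95.2% of the reads in shAPT1.

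TRIM29, a tripartite-motif protein of basal epithelia that lacks a RING domain (ENSG00000137699.16; chromosome 11, 120111275 to 120185529, minus strand), was the gene with the fewest reads. It had 1.16, 0.867 and 1.5 TPM in shAPT1, 1.42, 0.478 and 0.574 TPM in APT1wt, and 0, 0 and 0.125 TPM in control. The shAPT1 and APT1wt libraries overlapped in TPM but not in reads, of which there were 15, 15 and 24 in shAPT1, 3, 6 and 6 in APT1wt, and 0, 0 and 2 in control. The ratio of read rates was 23.6 in shAPT1 against control, with an exact 95% interval of 6.23 to 200. Against APT1wt it was 3.71, with an interval of 2.06 to 7.08. Both intervals cover counting error only and are no test, since these comparisons entered the choice of the gene. The fitted log2 value against control was 4.32 ± 0.68, or 7.10 without control replicate 3, which held both control reads, and 3.23 with the deposited table. Against APT1wt it was 1.80 ± 0.46, or 0.81 with an offset for transcript length and 0.50 with the deposited table. A processed transcript of 1632 nt, ENST00000524816.7, held 86.0% of the reads in shAPT1. Coding transcripts held 12.2% of the reads, at 0.062, 0.211 and 0.093 TPM in shAPT1 and 0 in all APT1wt and control libraries.

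**Figure D2:**
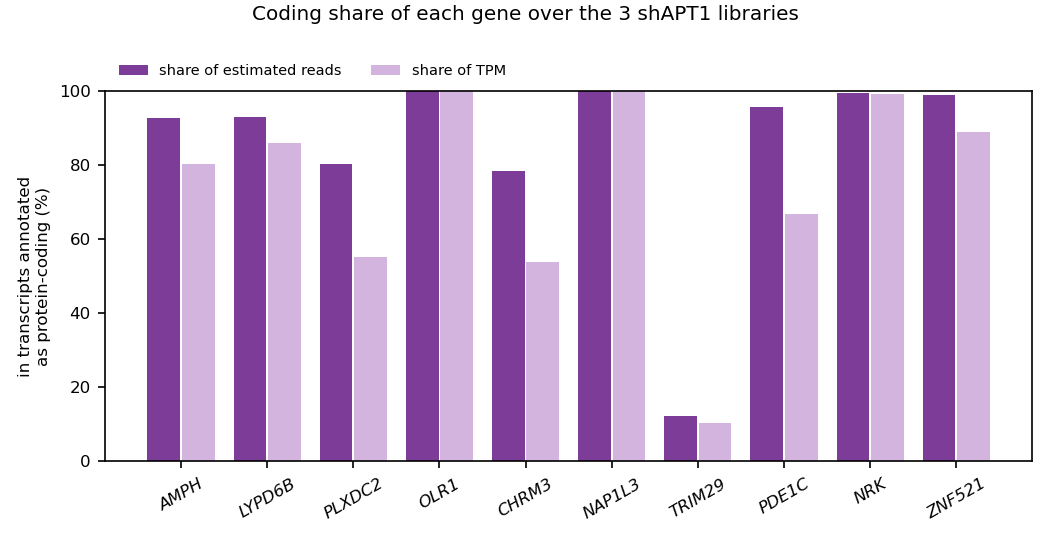
Share of each gene's estimated reads (dark bars) and of its TPM (light bars) assigned to transcripts annotated as protein-coding, in percent, over the 3 shAPT1 libraries. TRIM29 stands at 12.2% of reads and 10.4% of TPM, while OLR1 and NAP1L3 are coding throughout.

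By reads, coding transcripts held 78.4% or more in 9 of the genes and 12.2% in TRIM29. By TPM the coding share was 53.9% in CHRM3, 55.3% in PLXDC2 and 66.8% in PDE1C, because short processed transcripts carry more TPM per read. Salmon divides reads among transcripts of a gene by estimate, so the shares of overlapping transcripts of a gene with few reads are imprecise.

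In APT1wt against control the 10 genes did not share a direction. Both of these groups entered the choice of the genes through their low levels, so all 10 are described without a test. Of the 10, 8 also passed the filter on low counts only through the shAPT1 libraries. LYPD6B and PDE1C passed it with the APT1wt and control libraries alone. LYPD6B gave 2.61 ± 0.39 on the log2 scale, on 72 reads in APT1wt against 10 in control, and 3.35 without control replicate 1. PDE1C gave -2.41 ± 0.55 on 11 reads against 53, and -3.57 without APT1wt replicate 1. With only these groups in the fit the values were 2.61 and -2.42. Of all tested genes, 11.8% rose and 11.6% fell (edgeR quasi-likelihood test, adjusted p under 0.05), or 23.4% in all.

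Among the other genes, ZNF521 gave -1.91 ± 0.46 on 9 reads in APT1wt against 30 in control, and -3.14 with an offset for transcript length. NRK gave -2.25 ± 0.53 on 6 reads against 26, with -1.67 under the length offset and -1.03 with the deposited table. TRIM29 gave 2.53 ± 0.86 on 15 reads against 2, a ratio of read rates of 6.36 with an exact 95% interval of 1.48 to 57.3 for counting error, and 5.30 without control replicate 3. OLR1 gave 1.56 ± 0.77 on 35 reads against 10, and 0.96 without APT1wt replicate 3. The values of AMPH (0.11 ± 0.74), PLXDC2 (0.90 ± 0.62), CHRM3 (-0.57 ± 0.76) and NAP1L3 (-0.56 ± 0.97) rested on 3 to 12 reads over the APT1wt libraries and 4 to 8 in control.

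**Figure D3:**
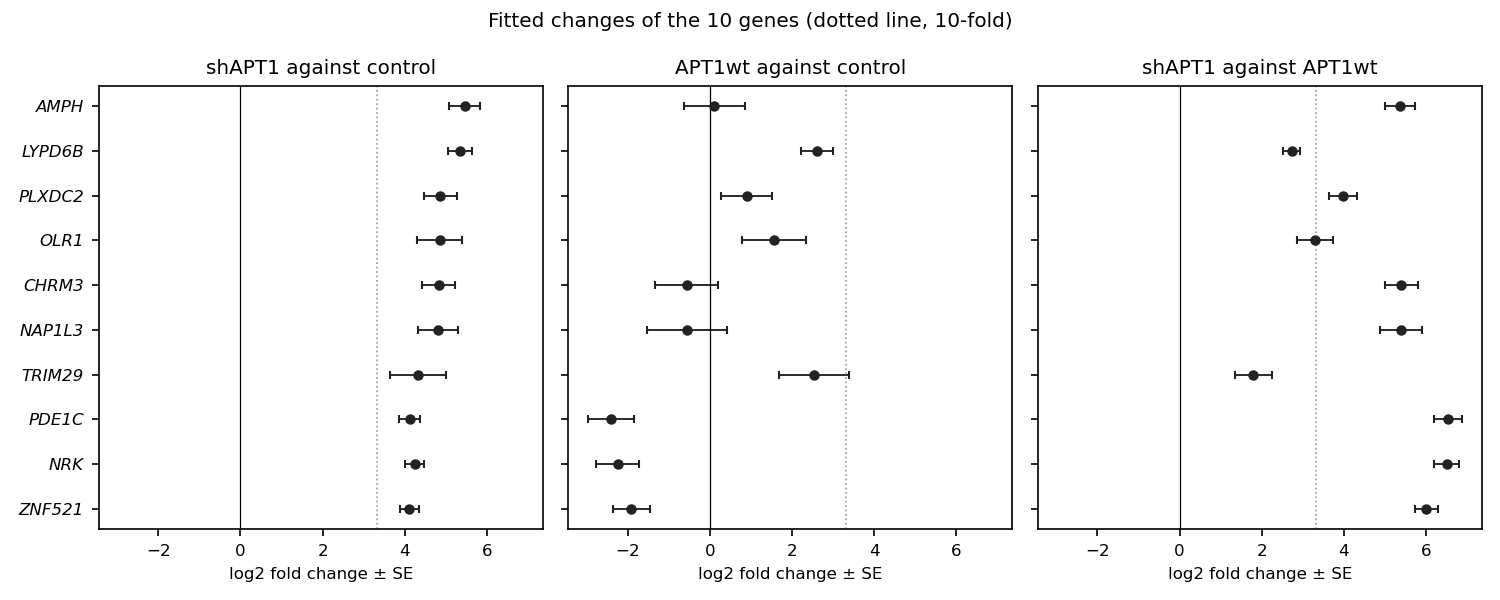
Fitted log2 fold change ± SE (horizontal axis) of the 10 genes in panels for shAPT1 over control, for APT1wt over control and for shAPT1 over APT1wt, with a dotted line at 10-fold. All 10 lie right of the line in the first panel and 7 in the third, while the middle panel runs from -2.41 for PDE1C to 2.61 for LYPD6B.

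The order of the groups therefore differed among the genes. In TPM, PDE1C and ZNF521 had APT1wt lowest in every library. LYPD6B, OLR1, AMPH and TRIM29 had control lowest in every library, though in reads AMPH overlapped between APT1wt and control. In PLXDC2, CHRM3, NRK and NAP1L3 the 2 lower groups overlapped in TPM. In CPM, 7 of the 10 genes had no overlap between APT1wt and control, where 22.2% of all tested genes had every APT1wt library higher and 22% every one lower. By the root mean square difference of centred log2(TPM + 0.1) over the 9 libraries, the nearest protein-coding gene outside the 10 to both AMPH and CHRM3 was the chemokine receptor gene CXCR4, at 0.363 and 0.496. CHRM3 lay slightly nearer to NRK, at 0.484. The tetraspanin gene TSPAN8 was nearest to NRK (0.422) and PDE1C (0.767), with 1.68 ± 0.52 TPM in shAPT1, 0 in all APT1wt libraries and 0.152 ± 0.051 TPM in control. NAP1L3 lay nearest to WNT5A (0.354), PLXDC2 to NRXN3 (0.346), TRIM29 to RASEF (0.421), ZNF521 to CHRDL1 (0.542), OLR1 to C4BPB (0.631) and LYPD6B to NPPB (0.865). These are descriptions of likeness over 9 libraries that share the 3 groups.

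Among 1637 tested genes with a control mean under 1 TPM, 35 were over 10-fold higher in shAPT1 than in control, 40 than in APT1wt, and 50 than in either. The 10 genes are part of these 50 and ranked 3 (AMPH) to 20 (ZNF521) by fold against control among all tested genes. The same limits gave 12 genes for APT1wt against control, where 0.0919% of all tested genes were over 10-fold higher. Turned round, 4 genes were under 1 TPM in shAPT1 and over 10-fold lower there than in control, and 13 were so in APT1wt. Just inside the limit lay PLA2G4A (10.1-fold), RASEF (10.2) and PTGS2 (11.2), and just outside it MEF2C (9.98), CST2 (9.47) and RHOJ (9.25). With the ratio of mean TPM + 0.1 in place of the fitted fold, 25 genes met both limits.

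The 10 lists, 1 for each gene, held 178 genes, of which 124 were tested. In shAPT1 against control 28 rose, 23 fell and 73 did not pass, which is 41.1% called beside 24.4% of all tested genes, with a median log2 fold change of -0.03 beside -0.0039 for all tested genes. In APT1wt against control 23 rose and 17 fell, or 32.3% beside 23.4%. In shAPT1 against APT1wt 15 rose and 28 fell, or 34.7% beside 25.1%. In the first comparison the largest changes among the tested genes were -2.01 in PDE9A and 1.96 in PLCB4.

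**Figure D4:**
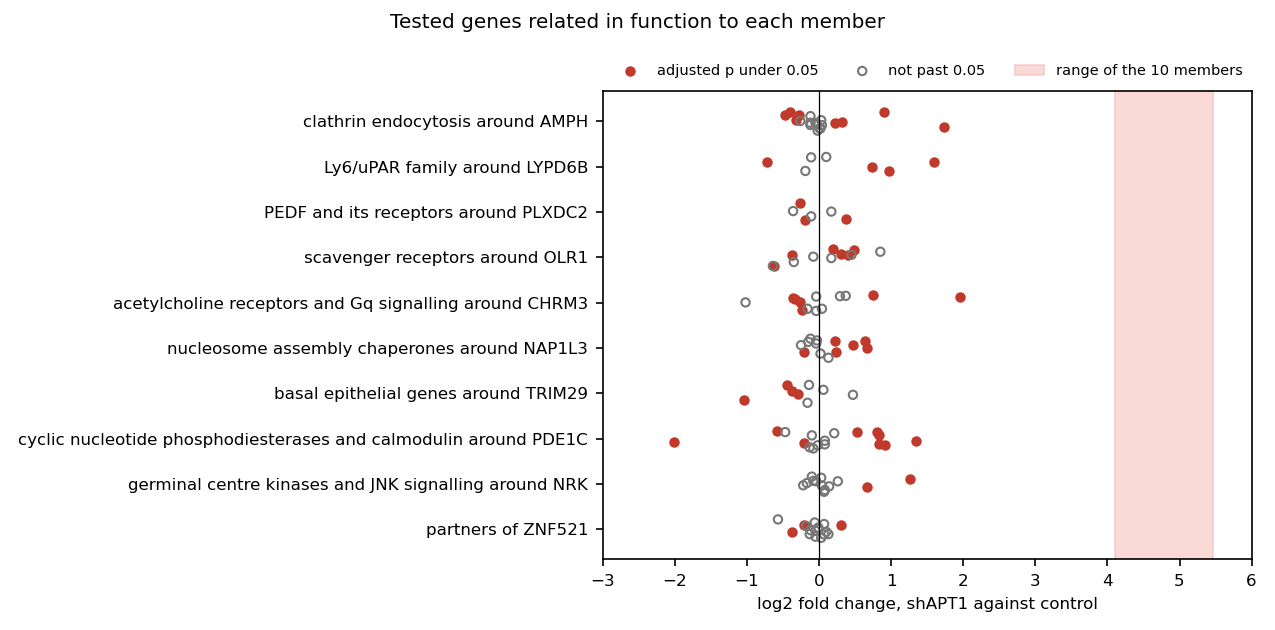
Log2 fold change in shAPT1 against control (horizontal axis) of the 124 tested genes of the 10 function lists, 1 row per list, with filled points for adjusted p under 0.05 and open points for the rest. The shaded band spans the 10 genes, 4.11 to 5.46, and every point lies to its left.

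Around CHRM3, 13 of 24 genes of acetylcholine receptors and Gq signalling were tested, of which 2 rose and 4 fell in shAPT1 against control. PLCB4, a phospholipase C that acts below Gq, rose by 1.96 ± 0.39 on the log2 scale (adjusted p = 0.002), and RGS4, which shortens Gq signals, rose by 0.75 ± 0.18 (adjusted p = 0.0066), at 10.8 ± 1.7 TPM in shAPT1 against 5.17 ± 0.90 TPM in control. GNAQ, the Gq alpha subunit, fell by 0.36 ± 0.078 (adjusted p = 0.0039). The other muscarinic receptor genes, CHRM1, CHRM2, CHRM4 and CHRM5, were under the filter, the highest library being CHRM4 at 0.183 TPM in shAPT1 and 0.348 TPM in control. PLCB1 was under the filter too, with at most 0.933 TPM in shAPT1, 0 in APT1wt and 0.165 TPM in control. PLCB4 and GNAQ missed 0.05 with the length offset and with the deposited table. PLCB4 was also called in APT1wt against control, where 2 genes of this list rose and 2 fell. It had the largest change among them, lost in the same 2 alternatives.

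Of 12 tested scavenger receptors and related genes around OLR1, 4 rose and 2 fell. VLDLR, a lipoprotein receptor, rose by 0.49 ± 0.12 (adjusted p = 0.0062), and CD68, a lysosomal scavenger receptor, fell by 0.62 ± 0.12 (adjusted p = 0.0015). LRP1 rose by 0.40 ± 0.12 (adjusted p = 0.023) but not when shAPT1 replicate 2 or 3 or control replicate 1 or 3 was left out. In APT1wt against control 4 genes of this list rose and 3 fell, and LRP1 rose more there, by 1.09 ± 0.12. SCARF1 had 0.851, 1.03 and 1.80 TPM in shAPT1, 5.13, 4.95 and 4.81 TPM in APT1wt, and 1.02, 1.18 and 1.5 TPM in control, and rose in APT1wt against control by 2.03 (adjusted p = 1.5e-06).

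The Ly6/uPAR list around LYPD6B had 7 of 17 genes tested, of which 3 rose and 1 fell. LYPD6, the closest relative of LYPD6B, rose by 0.97 ± 0.11 (adjusted p = 2.9e-05). LY6E rose by 0.74 ± 0.097 (adjusted p = 8.9e-05), and LYPD1 by 1.59 ± 0.49 (adjusted p = 0.029), a call lost in 6 alternatives. In APT1wt against control 2 genes of this list rose and 2 fell, and LY6E rose more there, by 1.19 ± 0.097. Of the pigment epithelium-derived factor list around PLXDC2, 1 of 6 tested genes rose and 2 fell. PLXDC1, the paralog of PLXDC2, gave -0.36 ± 0.59 (adjusted p = 0.71), and SERPINF1, which encodes the factor itself, gave -0.11 ± 0.32 (adjusted p = 0.84).

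Around PDE1C, 17 of 21 phosphodiesterase and calmodulin genes were tested, and 6 rose and 3 fell. PDE9A, which is specific for cGMP, fell by 2.01 ± 0.27 (adjusted p = 0.00011), to 0.699, 0.927 and 1.26 TPM in shAPT1 against 3.16, 3.91 and 3.33 TPM in control. PDE8B, which is specific for cAMP, rose by 1.34 ± 0.22 (adjusted p = 0.00057) and PDE11A by 0.91 ± 0.19 (adjusted p = 0.0026, lost with the length offset and the deposited table). PDE1A and PDE1B, the other calcium-dependent enzymes, were under the filter, with at most 0.332 TPM in any library. PDE8B was also called in APT1wt against control, where 5 genes of this list rose and 2 fell. Its change was the largest among them, and the call was lost without APT1wt replicate 3.

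Of 13 tested germinal centre kinases and JNK pathway genes around NRK, 2 rose and none fell. TNIK, a kinase of the same family, rose by 1.26 ± 0.14 (adjusted p = 2.3e-05), with 6.01, 5 and 3.87 TPM in shAPT1 against 1.79, 1.97 and 1.47 TPM in control. MAP3K1 rose by 0.66 ± 0.073 (adjusted p = 1.9e-05). Of 19 tested endocytosis genes around AMPH, 4 rose and 4 fell. SNAP91, the neuronal clathrin adaptor AP180, rose by 1.73 ± 0.37 (adjusted p = 0.004), with 2.01, 1.58 and 1.67 TPM in shAPT1 against 0.502, 0.502 and 0.989 TPM in control. DNM3 rose by 0.90 ± 0.23 (adjusted p = 0.0096; lost with the length offset, the deposited table and without control replicate 3), and BIN1, the paralog of AMPH, gave -0.26 ± 0.11 (adjusted p = 0.094).

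Among 13 tested nucleosome assembly genes around NAP1L3, 5 rose and 1 fell. TSPYL5 rose by 0.64 ± 0.091 (adjusted p = 0.00017) and NAP1L5 by 0.66 ± 0.18 (adjusted p = 0.018), the NAP1L5 call being lost in 4 alternatives. NAP1L2, another X-linked relative, was under the filter. TSPYL5 was also called in APT1wt against control, where 1 gene of this list rose and 1 fell. Of 16 tested partners of ZNF521, 1 rose and 2 fell, with MBD3 of the NuRD complex falling by 0.38 ± 0.069 (adjusted p = 0.0012). Its paralog ZNF423 was listed at 0 in every library. Of 8 tested basal epithelial genes around TRIM29, none rose and 4 fell, among them KRT15 by 1.04 ± 0.20 (adjusted p = 0.0017, lost with the length offset and the deposited table) and LAMB3 by 0.38 ± 0.073 (adjusted p = 0.0015). KRT17 was under the filter, its highest library being 2.36 TPM in shAPT1, 0 in APT1wt and 0.20 in control, and so was KRT14, with 0.646 TPM in shAPT1, 0 in APT1wt and 0.061 in control. TP63 and KRT5 were also untested. KRT15 was also called in APT1wt against control, with the largest change among the 1 gene of this list that rose and the 3 that fell.

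Position on the chromosome was compared next. Of 22 tested genes that start within 500 kb of the start of 6 of the genes, 4 rose and 2 fell in shAPT1 against control, or 27.3% beside 24.4% of all tested genes. In APT1wt against control 2 rose and 6 fell, or 36.4% beside 23.4%. In shAPT1 against APT1wt 8 rose and 1 fell, or 40.9% beside 25.1%. Within 1000 kb, 59 genes near 9 of the genes were tested. In shAPT1 against control 8 of them rose and 4 fell, or 20.3% beside 24.4%, a share below that of all tested genes.

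FAM133A, whose start lies 0.445 kb from that of NAP1L3 on the opposite strand, rose with a log2 fold change of 1.46 ± 0.16 in shAPT1 against control (adjusted p = 1.5e-05). It had 8.09, 6.25 and 5.62 TPM in shAPT1, 2.85, 2.42 and 2.18 TPM in APT1wt, and 2.11, 2.21 and 2.55 TPM in control. Unlike NAP1L3 it was detected in all 9 libraries, and its shAPT1 libraries did not overlap the others. Against APT1wt the value was 1.33 ± 0.15 (adjusted p = 2.9e-05). Its promoter is shown because it lies head to head with that of NAP1L3, at chrX:93673956-93674255 (plus strand), from a RefSeq start 193 bases from the GENCODE gene start. It is 37.3% G and C against 58.3% for NAP1L3, with CCAAT boxes starting 163 and 61 bases and TEAD letters starting 22 bases before the start site, and a TATA box 31 bases after it.
FAM133A: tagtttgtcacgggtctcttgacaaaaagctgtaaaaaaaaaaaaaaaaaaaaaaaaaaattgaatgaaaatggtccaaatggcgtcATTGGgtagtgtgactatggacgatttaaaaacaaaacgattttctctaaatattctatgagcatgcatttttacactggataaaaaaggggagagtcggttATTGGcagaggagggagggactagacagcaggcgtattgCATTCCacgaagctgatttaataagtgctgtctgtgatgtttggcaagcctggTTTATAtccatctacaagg

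LYPD6 starts 292 kb downstream of LYPD6B. It had 8.92, 7.11 and 8.25 TPM in shAPT1, 4.66, 5.48 and 5.56 TPM in APT1wt, and 3.50, 3.68 and 4.91 TPM in control. The shAPT1 libraries stood above all others, as in LYPD6B. Its rise in APT1wt against control, 0.45 ± 0.12 (adjusted p = 0.012), was lost in 5 alternatives.

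**Figure D5:**
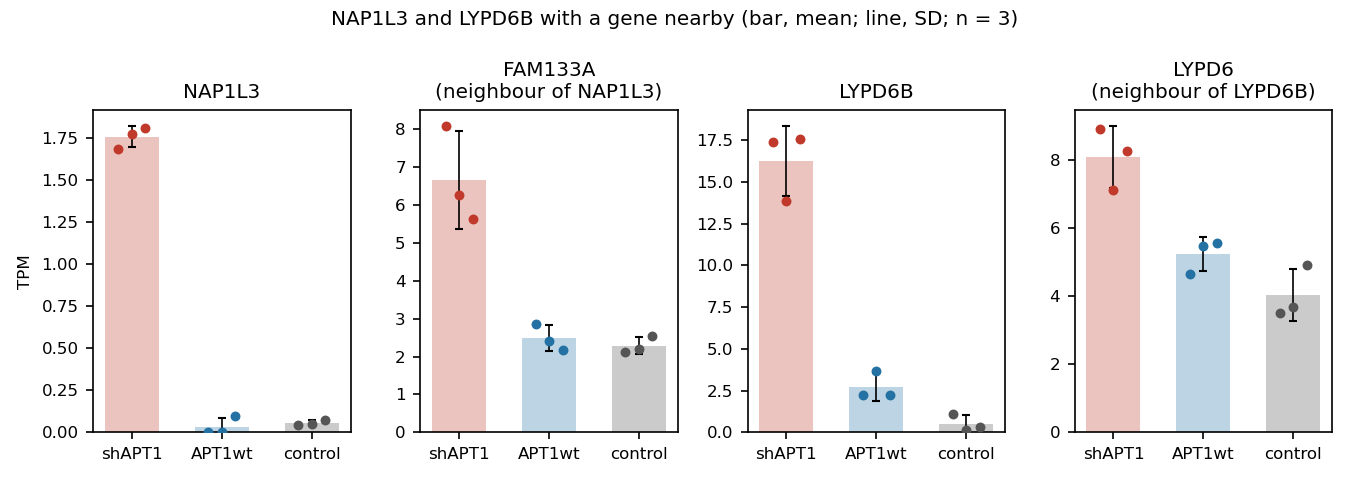
TPM (vertical axis, a separate linear scale per panel) of NAP1L3, its neighbour FAM133A, LYPD6B and its neighbour LYPD6 in the 3 groups, with points for libraries, bars for means and lines for SD (n = 3). In all 4 panels the shAPT1 libraries lie above the rest, but both neighbours are also present in control, at 2.29 ± 0.23 TPM for FAM133A and 4.03 ± 0.76 TPM for LYPD6.

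Near other members the direction varied in shAPT1 against control. OAF, 25.2 kb upstream of TRIM29, fell by 0.50 ± 0.10 in shAPT1 against control (adjusted p = 0.0024), and NECTIN1, 456 kb downstream of it, fell by 0.82 ± 0.11 (adjusted p = 0.00014). NECTIN1 fell more in APT1wt against control, by 1.18 ± 0.12 (adjusted p = 6.8e-06). Between shAPT1 and APT1wt, NECTIN1 was the higher in shAPT1, by 0.36 ± 0.12 (adjusted p = 0.042, lost in 11 alternatives). GABARAPL1, 40.3 kb upstream of OLR1, gave 0.43 ± 0.18 in shAPT1 against control (adjusted p = 0.10) and fell by 0.69 ± 0.20 in APT1wt against control (adjusted p = 0.023, lost in 5 alternatives). AVL9, 196 kb upstream of PDE1C, gave 0.13 ± 0.078 in shAPT1 against control (adjusted p = 0.26). It fell by 0.44 ± 0.08 in APT1wt against control (adjusted p = 0.0012, lost in 2 alternatives). CLEC2B, 302 kb downstream of OLR1, averaged 1.13 TPM in shAPT1, 0.167 in APT1wt and 0.62 in control. In shAPT1 against APT1wt, CLEC2B rose by 2.8 ± 0.54, GABARAPL1 by 1.12 ± 0.19 and AVL9 by 0.57 ± 0.079. OAF, at -0.75 ± 0.099, was the 1 neighbour that fell there, while 8 rose.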

How the data were processed

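RNA of 9 libraries was quantified by the authors. Per the submitters' processing notes, FastQC, Salmon and DESeq2 were used with build GRCh38.p10, and versions and strand setting are not given in the sources used here. The deposited Salmon files give each of 199324 transcripts (58219 genes) an expected count and a TPM, per the file headers. The deposited gene table holds a signal that the authors scaled between libraries in a way not given in the sources used here, and it served as an alternative only.

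Transcripts were matched to genes by the symbol and identifier in their names. Expected counts were summed per gene, rounded, filtered with filterByExpr (15233 genes kept), scaled by TMM and fitted over all 9 libraries with edgeR 4.0.16 (quasi-likelihood, 3 contrasts, Benjamini-Hochberg at 0.05) in R 4.3.3. Levels are given in gene-level TPM, and group overlap in CPM. Positions came from GENCODE 29 on GRCh38 and promoters from RefSeq on GRCh38.p14. Exact 95% intervals of read-rate ratios and the depth of 12381681 to 18667042 reads cover counting error only.

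The 10 genes, the 10 function lists, the motifs and the naming rule were chosen with earlier results of these data known. The naming rule picked all 10 genes, LYPLA1, the nearest gene outside the 10 by pattern and the genes beside the 10-fold limit. It also picked up to 3 called genes per function list by size of change and up to 2 called neighbours per gene. Not all genes picked from the lists and neighbours are printed here. PLXDC1, SERPINF1, BIN1, the other muscarinic receptors, PDE1A, PDE1B, NAP1L2, ZNF423, PLCB1, TP63, KRT5, KRT14 and KRT17 were named with their values in view.

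Alternatives were RLE scaling, library totals, no filter, at least 20 reads in 3 libraries, a transcript-length offset, limma 3.58.1 on log2(deposited value + 1), DESeq2 1.42.0, only the groups compared, a replicate block and leaving out each library. Same-numbered libraries of APT1wt and control deviated together, with correlations of 0.20, 0.266 and 0.258 over genes, against -0.213 to -0.0259 for different numbers. The replicate numbers may therefore pair those groups, which no label states. The p-values printed here come from the main fit, which left the libraries unpaired.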

Additional observations from a re-analysis of the deposited data

How the results depend on the processing

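The 10 genes kept their sign in shAPT1 against control and against APT1wt in every alternative, with log2 values of 2.99 to 7.10 and of 0.50 to 8.45. Over 10-fold against control stood 9 of 10 with the transcript-length offset and 8 of 10 with the deposited table. With at least 20 reads in 3 libraries TRIM29 was not tested. In APT1wt against control, where the 10 genes are described without a test, log2 values ran from -2.41 to 2.61. Over the alternatives they ran from -3.64 to 5.30. When only these groups were fitted, LYPD6B and PDE1C alone passed the filter on low counts.

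Genes called were 3719 in shAPT1 against control, 3568 in APT1wt against control and 3829 in shAPT1 against APT1wt. With the length offset these counts were 2307, 2230 and 2374, with the deposited values they were 2144, 2072 and 2166, and without 1 library 2616 to 4096, 2298 to 4825 and 2573 to 4104, the 2298 being without APT1wt replicate 3. The function lists gave 51, 40 and 43 calls in the same order. The first 2 were 26 and 23 with the length offset and 25 and 24 with the deposited table, and without 1 library the 3 were 35 to 52, 27 to 52 and 33 to 49. Genomic neighbours gave 6, 8 and 9 calls, and 4 to 7, 4 to 11 and 8 to 10 without 1 library. The second was 4 without APT1wt replicate 3 or control replicate 1, and 3 with the length offset or the deposited table, and the first was 12 within 1000 kb. The cause of these shifts was not tested.

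With the replicate number as a block, genes called were 3754, 3625 and 3872, function calls 52, 40 and 46, and neighbour calls 6, 10 and 9. The log2 values of the 10 genes in APT1wt against control then ran from -2.37 to 2.61. Same-numbered libraries of shAPT1 and control correlated at -0.0426, 0.198 and 0.00476, against -0.141 to 0.113 for different numbers. Those of shAPT1 and APT1wt correlated at 0.131, 0.276 and 0.0943, against -0.286 to 0.14 for different numbers. Whether the numbers pair shAPT1 with either group is not settled by these values.

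The naming rule picked 70 neighbour results, not all of which are printed here. Of these, 43 kept their call in every alternative, and of 1253 values 123 lost it and 0 reversed. Genes meeting the near-silent limits numbered 50, or 42 with control under 0.5 TPM. Coding transcripts alone gave mean TPM in shAPT1 of 0.122 for TRIM29, 0.736 for PLXDC2, 1.42 for CHRM3, 2.19 for AMPH, 4.68 for PDE1C and 14 for LYPD6B. Depth limits the genes with under 15 reads in a group, whose fitted folds depend on the prior count.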
